A study of Homo sapiens with 12 samples.

Results

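Heat shock genes encode the chaperones that keep proteins folded, and 10 of them were followed here in HEK293T cells. The genes were chosen by name, with earlier results of these data known. They included HSPA1A and HSPA1B (the stress-inducible HSP70 proteins), HSPA8 (the constitutive HSP70), HSPH1 (an HSP110 protein), DNAJB1 (a J-domain protein) and BAG3. The other members were HSP90AA1 and HSP90AB1 (the cytosolic HSP90 proteins), and HSPD1 and HSPE1 (the mitochondrial chaperonin and its co-chaperonin). Each of the 10 genes had 1 row in the count table, so 10 of 41878 gene rows were members. All 10 were among the 18030 genes that passed the filter on low counts.

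HEK293T is an established human embryonic kidney line. The cells had been transfected with 1 µg of a control vector or of a TRPML3 plasmid; MCOLN3 encodes TRPML3, which conducts cations across endosomal and lysosomal membranes. Before RNA extraction they were kept in 10% serum (fed) or in 0% serum for 4 h (starved), which gave vector fed, vector starved, TRPML3 fed and TRPML3 starved groups of 3 biological replicates each. All 4 groups were transfected, and no untransfected cells were analysed here. Whether replicates came from separate transfections or days is not given, so p-values measure the spread between these samples, which may be technical. The series addresses gene regulation by TRPML3 and by starvation-induced autophagy.

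As background, HSP70 proteins bind exposed hydrophobic stretches of unfolded clients in a cycle driven by ATP. J-domain proteins such as DNAJB1 deliver clients and speed ATP hydrolysis, while HSPH1 and BAG3 act as nucleotide exchange factors that let clients go. HSP90 finishes the folding of kinases and steroid receptors, and HSPD1 with HSPE1 forms the folding chamber of the mitochondrial matrix. The transcription factor HSF1 drives the inducible members from heat shock elements, which are inverted repeats of GAA, and HSPA8 and HSP90AB1 are known for high levels in unstressed cells.

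Library totals ran from 33101540 to 43700547 counts, and no 2 libraries agreed within counting noise. MCOLN3 had 9.31 to 18.4 CPM (counts scaled to one common library total with TMM factors) in the 6 vector libraries and 4930 to 58200 in the 6 TRPML3 libraries, so every TRPML3 library lay above every vector library. Of the markers of the line, VIM was at 182 to 585, KRT8 at 65.2 to 144, KRT18 at 30.4 to 43.3, NEFM at 91.9 to 176 and PAX2 at 0.839 to 5.33 CPM. Of the markers of other cell types, PTPRC reached 0.0979, PECAM1 0.494, NPHS1 0.888 and ALB 2.05 CPM, and the fibroblast gene COL3A1 lay at 14.8 to 21.7 CPM. The rows of PTPRC and COL3A1 carried identifiers that the primary assembly annotation of GENCODE release 29 does not hold.

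The replicate 3 libraries differed from the others in the following measures. The mean rank correlation of vector fed replicate 3 with the other fed vector libraries was 0.936, against 0.951 with starved vector replicates 1 and 2. That of TRPML3 fed replicate 3 was 0.935 against 0.945. Each mean with the other serum state left out the library of the same replicate number. TRPML3 starved replicate 3 had 0.93 against 0.932, while vector starved replicate 3 was closer to its own group, with 0.939 against 0.935. Smaller gaps of the first kind were also seen in vector starved replicate 1 (0.949 against 0.95) and TRPML3 starved replicate 1 (0.939 against 0.941). Mitochondrial transcripts took 4.83% to 5.7% of the counts in the 4 replicate 3 libraries, 2.81% to 4.4% in replicate 1 and 1.05% to 2.52% in replicate 2. The labels name no batch, and the part of these differences in the results was not tested.

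Promoters of the members were searched for heat shock elements to show what they share beyond function. A 3-unit element was GAANNTTCNNGAA or TTCNNGAANNTTC, a 2-unit element was GAANNTTC or TTCNNGAA, and both strands were read; each 3-unit element contains 2-unit elements. RefSeq (GRCh38.p14) gave 16 promoters for the 10 genes, each from 250 bases before to 50 bases after a transcription start. The 3-unit element stood in 4 of the 16, or 25.0%, one each for HSPA8, HSP90AA1, HSP90AB1 and HSPD1, compared with 172 of 35116 promoters in the whole table, or 0.49%. The 2-unit element stood in 8 of the 16, or 50%, of 7 genes, compared with 13.5% of all promoters. The windows of HSPH1, HSPE1 and BAG3 did not hold these letters, which says nothing of a factor's binding. A match describes the sequence only.

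The following stretches upstream of the start are shown because they hold the elements of the stress-inducible and the abundant members; they lie outside annotated exons, run 5′ to 3′ on the strand of the gene, and carry the elements in capitals.
HSPA1A, chr6:31815293-31815463, plus strand: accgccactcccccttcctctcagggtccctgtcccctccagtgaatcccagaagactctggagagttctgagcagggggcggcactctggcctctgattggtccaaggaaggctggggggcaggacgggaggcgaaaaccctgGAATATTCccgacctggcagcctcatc
HSPA1B, chr6:31827488-31827734, plus strand: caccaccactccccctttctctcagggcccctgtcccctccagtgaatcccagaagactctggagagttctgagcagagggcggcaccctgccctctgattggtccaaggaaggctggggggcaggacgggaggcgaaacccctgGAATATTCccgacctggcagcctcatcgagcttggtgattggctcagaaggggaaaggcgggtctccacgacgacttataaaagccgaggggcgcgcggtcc
DNAJB1, chr19:14518421-14518647, minus strand: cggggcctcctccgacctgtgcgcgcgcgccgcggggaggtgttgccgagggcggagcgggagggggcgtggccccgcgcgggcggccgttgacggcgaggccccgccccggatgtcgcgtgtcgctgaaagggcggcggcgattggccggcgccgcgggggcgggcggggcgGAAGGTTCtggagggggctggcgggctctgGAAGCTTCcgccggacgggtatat
HSPA8, chr11:123062336-123062386, minus strand: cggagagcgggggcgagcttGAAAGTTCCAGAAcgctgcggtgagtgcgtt
HSP90AB1, chr6:44247693-44247865, plus strand: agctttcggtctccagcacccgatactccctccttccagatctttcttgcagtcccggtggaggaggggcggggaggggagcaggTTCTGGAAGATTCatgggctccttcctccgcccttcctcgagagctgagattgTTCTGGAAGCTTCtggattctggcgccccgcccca
HSPA1A and HSPA1B, which are neighbours on chromosome 6, carried the same 2-unit element, 106 and 105 bases before the start. Their promoters were identical at 277 of 299 aligned bases, or 92.6%. DNAJB1 had a pair of 2-unit elements 77 and 47 bases before the start, and HSP90AB1 a pair of 3-unit elements 165 and 112 bases before it.

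The other 3-unit elements lay where some annotated transcripts have exons, so each is shown with its flanking bases alone, in lower case.
HSPA8, element: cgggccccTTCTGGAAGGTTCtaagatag
HSP90AA1, element: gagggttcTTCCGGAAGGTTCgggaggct
HSPD1, element: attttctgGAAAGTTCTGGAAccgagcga
These lay 55 bases before the start in HSPA8, 88 bases before it in HSP90AA1 and 240 bases before it in HSPD1, where another match overlapped it, 245 bases before the start. The map of elements shows both kinds at their distance from the start.

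**Figure D1:**
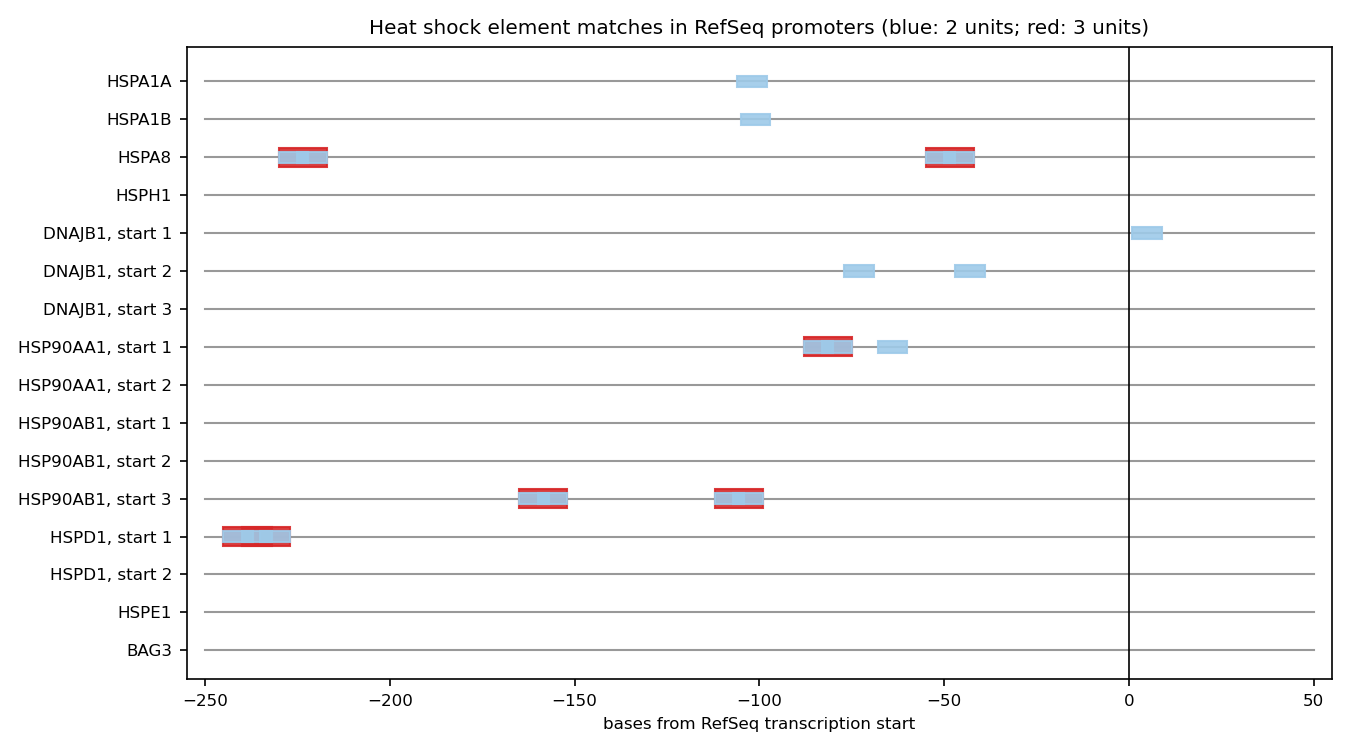
Heat shock element matches in the 16 RefSeq promoters of the 10 genes; the x axis is the distance in bases from the transcription start, blue boxes are 2-unit and red boxes 3-unit matches. The 3-unit matches fall in 4 promoters, those of HSPA8, HSP90AA1, HSP90AB1 and HSPD1.

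The members spanned a wide range of levels. The length of a gene joined all its annotated exons, and which transcripts were expressed was not known, so levels between genes are approximate. Per kilobase of exon, HSPD1 averaged 909 CPM over the 12 libraries and HSP90AA1 848.5, which placed them at ranks 42 and 47 of 17130 genes with a length. HSP90AB1 followed with 568, HSPA8 with 458.5 and HSPE1 with 212 CPM per kilobase. HSPA1B had 117, HSPH1 63.5, DNAJB1 58.0, HSPA1A 35.5 and BAG3 23.97 CPM per kilobase, the last at rank 2566.

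The order of levels was firm in places and loose in others. HSPA8 lay above HSPE1, HSPE1 above HSPA1B, and DNAJB1 above HSPA1A in 12 of 12 libraries. HSP90AA1 lay above HSP90AB1 in 11, and HSPA1B above HSPH1 in 11. HSPD1 exceeded HSP90AA1 in 9 of 12 libraries, HSP90AB1 exceeded HSPA8 in 10, HSPH1 exceeded DNAJB1 in 10 and HSPA1A exceeded BAG3 in 9, so the order within these pairs was not the same in every library. HSPE1 and HSPD1 encode partners of 1 complex. The level of HSPE1 per kilobase was at most 266 and that of HSPD1 at least 486, though some reads of both may lie in other rows.

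Spread within groups also differed between members. The mean coefficient of variation within a group was 10.6% for HSPE1 and 62.7% for HSPA1A, with HSP90AB1 at 42.3%. HSP90AA1 had 27.6%, HSPA8 26.0%, HSPA1B 20.5%, HSPD1 20.3%, BAG3 17.8%, HSPH1 16.8% and DNAJB1 16.6%. The median was 33.1% over all genes tested and 20.7% over the 4381 genes of at least 50 CPM, so HSPA1A and HSP90AB1 were loose for their level and HSPE1 was tight.

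**Figure D2:**
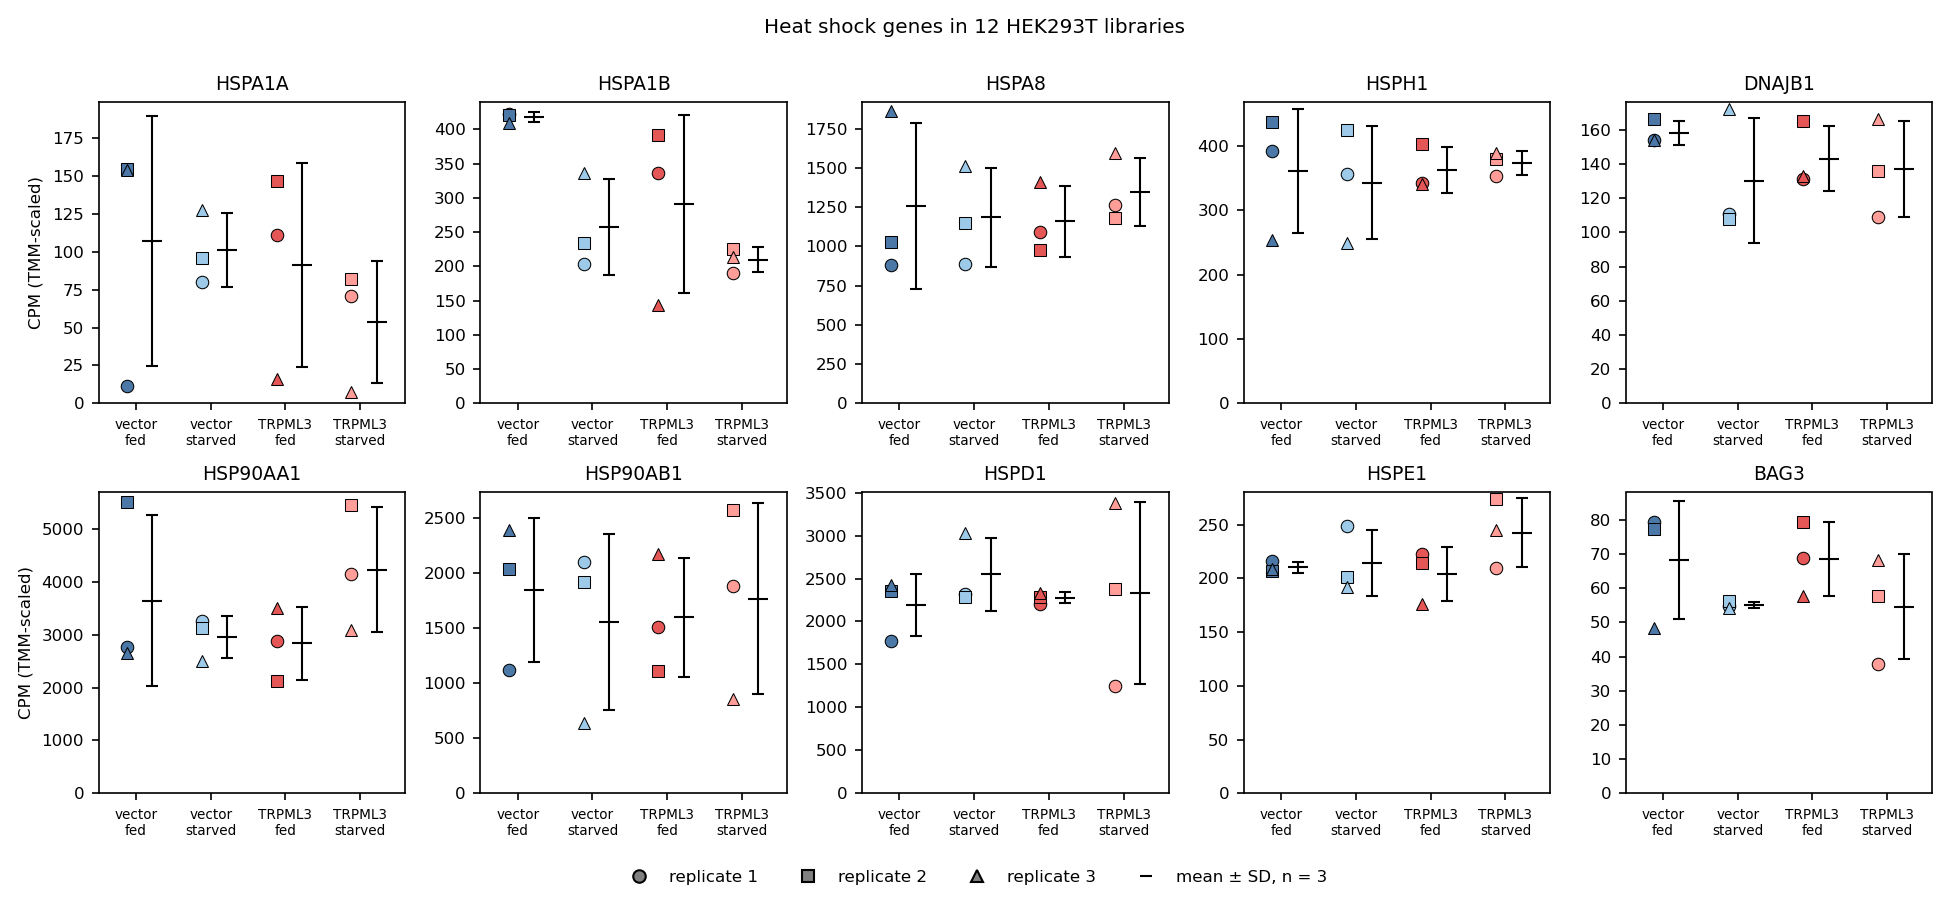
CPM of each of the 10 genes (y axis, from 0) in the 4 groups (x axis); circles, squares and triangles are replicates 1, 2 and 3, and the bars beside them are the mean ± SD of 3 libraries. HSPA1B sits between 410 and 423 CPM in vector fed cells and between 203 and 336 in vector starved cells, groups that do not overlap.

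Among the inducible HSP70 genes, HSPA1B showed the clearest separation by group. It had 423, 421 and 410 CPM in vector fed replicates 1, 2 and 3, and 203, 234 and 336 in vector starved ones. In TRPML3 fed cells it had 336, 392 and 144 CPM, and in TRPML3 starved cells 190, 225 and 214. The vector fed libraries were all above those of vector starved and of TRPML3 fed cells, while the TRPML3 fed and starved libraries overlapped, since fed replicate 3 was the lowest of the 12.

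HSPA1A, which encodes nearly the same protein, varied most among the members. It had 11.6, 155 and 154 CPM in replicates 1, 2 and 3 of fed vector cells and 80.0, 96.0 and 128 after starvation. It had 111, 147 and 16.0 CPM in fed TRPML3 cells and 70.7, 82.4 and 7.38 in starved ones. Vector fed replicate 1 and both TRPML3 replicate 3 libraries were far below the other 9.

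The low values were not shared by HSPA1B to the same extent. HSPA1A made up 24.8% to 29.1% of the counts of the pair in 9 libraries. In vector fed replicate 1 the share was 2.67% (Wilson 95% interval 2.43 to 2.93), in TRPML3 fed replicate 3 10.0% (9.2 to 10.9) and in TRPML3 starved replicate 3 3.33% (2.95 to 3.76). These intervals cover counting error only. The longest open reading frames of both genes have 1926 bases and differ at 4, with an identical run of 1709 bases, so reads could be placed on either gene, and the assignment between them is uncertain. Whether read placement sets the low values was not tested.

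Identifiers add a further limit for both genes. The rows of HSPA1A (ENSG00000235941) and HSPA1B (ENSG00000232804) carry identifiers that the primary assembly annotation of GENCODE release 29 does not hold. That annotation lists the genes as ENSG00000204389 (chr6:31815464-31817946) and ENSG00000204388 (chr6:31827735-31830255), both on the plus strand. Identifiers outside the primary assembly were not searched. Between HLA-F and HLA-DPB1, the surrounding region (chr6:29722775-33087201), 81 of 286 annotated genes appear in the table only under another identifier. It is not known whether these rows hold all reads of the genes. HSPA1B also shares 920 exonic bases with AL671762.1 on the same strand.

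Summed over both genes, the level was 434, 577 and 564 CPM in replicates 1, 2 and 3 of fed vector cells and 283, 330 and 464 after starvation. It was 447, 538 and 160 CPM in fed TRPML3 cells and 261, 307 and 222 in starved ones. In replicates 1 and 2 the starved libraries were below the fed ones with either plasmid. The log2 fold change of the sum, starved against fed over both plasmids, was -0.54 ± 0.26 SE (adjusted p = 0.562, edgeR).

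HSPA8 (chr11:123057489-123063230, minus strand), the constitutive HSP70, was highest in replicate 3 of every group. It had 881, 1029 and 1861 CPM in replicates 1, 2 and 3 of fed vector cells and 890, 1151 and 1513 after starvation. It had 1091, 976 and 1413 CPM in fed TRPML3 cells and 1266, 1183 and 1595 in starved ones. All 4 replicate 3 libraries lay above the other 8. HSPA8 was the 1 member of 10 whose replicate 3 libraries were all on one side of the range of the rest, and 3.28% of all genes tested had that pattern.

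The co-chaperones of HSP70 varied 1.6-fold (DNAJB1) to 2.09-fold (BAG3) between their lowest and highest library. HSPH1 (chr13:31134974-31162388, minus strand) had 393, 438 and 254 CPM in replicates 1, 2 and 3 of fed vector cells and 356, 425 and 250 after starvation, and with TRPML3 343, 404 and 341 fed and 354, 380 and 389 starved. Its lowest values were the vector replicate 3 libraries, fed and starved, and the groups overlapped.

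DNAJB1 (chr19:14514770-14529770, minus strand) had 154, 166 and 154 CPM in replicates 1, 2 and 3 of fed vector cells and 111, 108 and 172 after starvation. It had 131, 165 and 133 CPM in fed TRPML3 cells and 109, 136 and 166 in starved ones. Its highest library was vector starved replicate 3 and its lowest vector starved replicate 2, so the starved vector group spanned the whole range of the gene.

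BAG3 (chr10:119651370-119677819, plus strand), which links HSP70 to selective autophagy, had 79.3, 77.3 and 48.3 CPM in replicates 1, 2 and 3 of fed vector cells and 54.8, 56.2 and 54.2 after starvation. It had 68.7, 79.3 and 57.6 CPM in fed TRPML3 cells and 37.9, 57.6 and 68.3 in starved ones. In replicates 1 and 2 the fed libraries were above the starved ones with either plasmid, and in replicate 3 they were below.

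The HSP90 genes ranged widely between libraries. HSP90AA1 (chr14:102080738-102139699, minus strand) had 2761, 5515 and 2658 CPM in replicates 1, 2 and 3 of fed vector cells and 3250, 3121 and 2498 after starvation, and with TRPML3 2874, 2126 and 3502 fed and 4155, 5450 and 3094 starved. Replicate 2 of the vector fed and of the TRPML3 starved group stood far above the other libraries, and no pair of groups was free of overlap.

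HSP90AB1 (chr6:44246166-44253888, plus strand) had 1123, 2038 and 2388 CPM in replicates 1, 2 and 3 of fed vector cells and 2101, 1921 and 638 after starvation, and with TRPML3 1512, 1107 and 2171 fed and 1880, 2568 and 852 starved. The starved replicate 3 libraries were the 2 lowest of the 12, with both plasmids. Of the counts of HSP90AB1 and its pseudogene rows together, the pseudogene rows held between 1.37% and 9.3%. For HSP90AA1 they held between 1.14% and 3.21%, so some reads of these genes may lie in other rows.

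The mitochondrial chaperonin pair showed no separation of groups. HSPD1 (chr2:197486581-197516737, minus strand) had 1776, 2360 and 2429 CPM in replicates 1, 2 and 3 of fed vector cells and 2322, 2287 and 3033 after starvation, and with TRPML3 2209, 2289 and 2332 fed and 1249, 2378 and 3375 starved. The lowest and the highest library were both of the TRPML3 starved group.

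HSPE1 (chr2:197499994-197503457, plus strand) had 216, 207 and 209 CPM in replicates 1, 2 and 3 of fed vector cells and 249.2, 201 and 192 after starvation, and with TRPML3 223, 214 and 176 fed and 210, 274 and 245 starved. HSPD1 and HSPE1 lie head to head and share 169 exonic bases on opposite strands. HSPE1 also shares 192 with HSPE1-MOB4 on its own strand, and whether strand was used in counting is not given. Pseudogene rows held 1.38% to 4.48% of the counts of HSPD1 and its pseudogenes together. The shares were 1.82% to 3.68% for HSPE1 and 0.0461% to 0.144% for HSPA8.

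Starved and fed cells were compared to ask whether serum withdrawal moved the heat shock genes. With all 12 libraries none of the members passed: by edgeR's quasi-likelihood fit, 0 of 10 had an adjusted p under 0.05 in vector cells, in TRPML3 cells or over both plasmids. Of all genes tested, 0.00555%, 0% and 0% were called in these comparisons. At an unadjusted p under 0.05 the counts were 1, 0 and 1 of 10, compared with 4.44%, 5.71% and 9.45% of all genes. In whole cultures, fewer cells that express a gene and less RNA per cell cannot be told apart.

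HSPA1B was the member in both of these counts. In vector cells its mean level was 258 ± 69.7 CPM starved and 418 ± 7.17 fed (SD, n = 3), a log2 fold change of -0.70 ± 0.31 SE (unadjusted p = 0.0488, adjusted p = 1.0, edgeR). Over both plasmids the log2 fold change was -0.59 ± 0.22 (unadjusted p = 0.0236, adjusted p = 0.451, edgeR). HSPA1B was also the 1 of 10 members whose vector fed and vector starved libraries did not overlap, a pattern of 9.93% of all genes. In TRPML3 cells 0 of 10 members had groups free of overlap, compared with 11.2% of all genes.

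In TRPML3 cells the smallest unadjusted p was that of HSP90AA1. It averaged 4233 ± 1180 CPM starved and 2834 ± 689 fed (SD, n = 3), with a log2 fold change of 0.58 ± 0.31 SE (unadjusted p = 0.0882, adjusted p = 0.885, edgeR). The difference was 0.95 without replicate 3 (adjusted p = 0.262), 0.17 without replicate 2, and 0.35 without the starved replicate 2 library alone, which was at 5450 CPM.

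Across the members, starved against fed over both plasmids, 4 had a positive and 6 a negative log2 fold change, with a median of -0.034 beside 0.00618 for all genes tested. The values ran from -0.59 for HSPA1B to 0.14 for HSP90AA1 (0.29 without replicate 3), with standard errors between 0.113 and 0.717. The median was -0.169 in vector cells and 0.04 in TRPML3 cells, and without replicate 3 it was 0.00736 and -0.141. These fits do not show that the genes were equal between fed and starved cells.

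**Figure D3:**
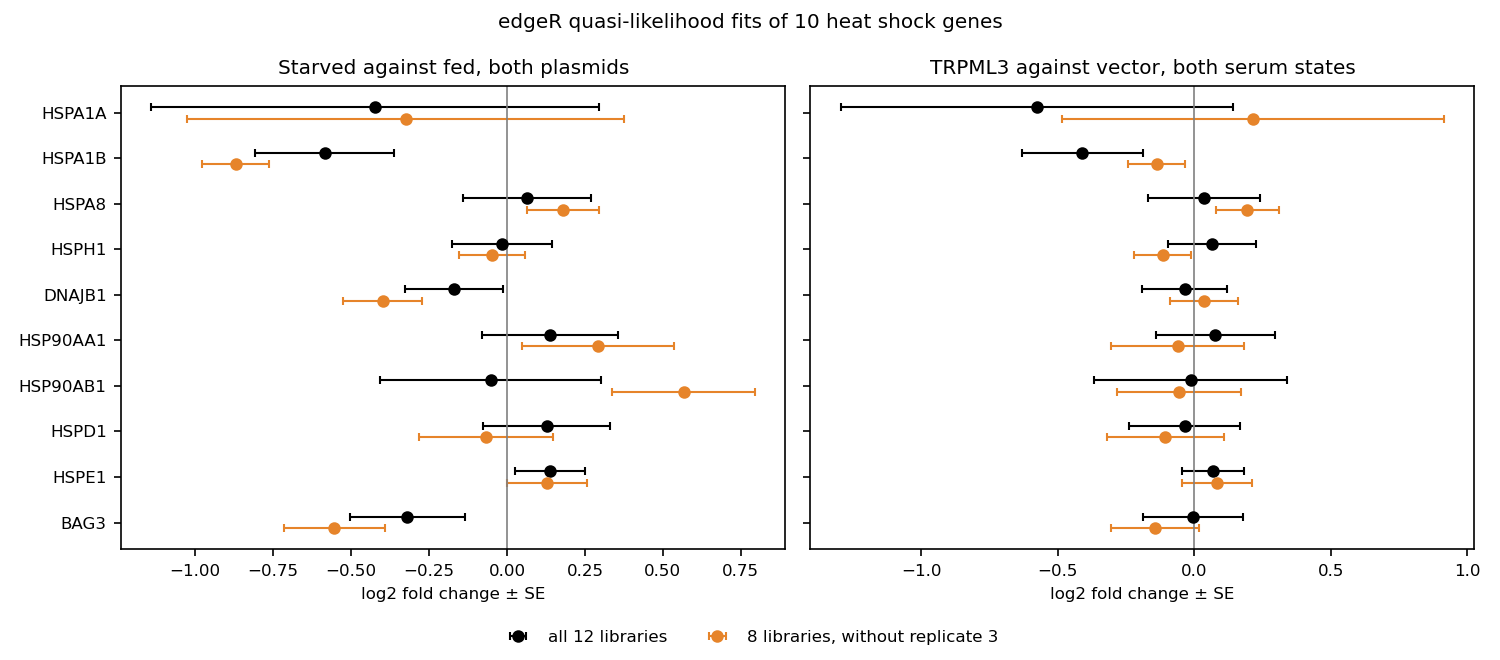
Log2 fold changes ± SE (x axes) of the 10 genes from edgeR, starved against fed over both plasmids on the left and TRPML3 against vector over both serum states on the right. Black points use all 12 libraries and orange points the 8 libraries of replicates 1 and 2; HSPA1B on the left moves from -0.59 to -0.87 and its error from 0.222 to 0.106.

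Setting the starved library beside the fed library of the same plasmid and number described each member within a number. In replicates 1 and 2, HSPA1B, DNAJB1 and BAG3 were lower in the starved library in 4 of 4 such pairs, 3 of 10 members compared with 18% of all genes tested. The log2 difference of CPM lay between -1.06 and -0.80 for HSPA1B, between -0.86 and -0.46 for BAG3 and between -0.62 and -0.27 for DNAJB1. HSPA8 was higher in 4 of 4, by 0.01 to 0.28, as 1 of 10 members compared with 17.3% of all genes. HSP90AA1 and HSP90AB1 were higher in 3 of 4, and HSPA1A and HSPH1 were lower in 3 of 4. The share of all genes at 3 of 4 was not computed.

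Replicate 3 went another way for several members. There the log2 difference was 0.17 in vector and 0.25 in TRPML3 cells for BAG3, and 0.16 and 0.32 for DNAJB1. HSPA1B had -0.29 and 0.57. HSP90AB1 had -1.90 and -1.35, while HSPD1 had 0.32 and 0.53. These are descriptions of single pairs of libraries, chosen after the values were seen, and the shared number does not pair fed with starved libraries.

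**Figure D4:**
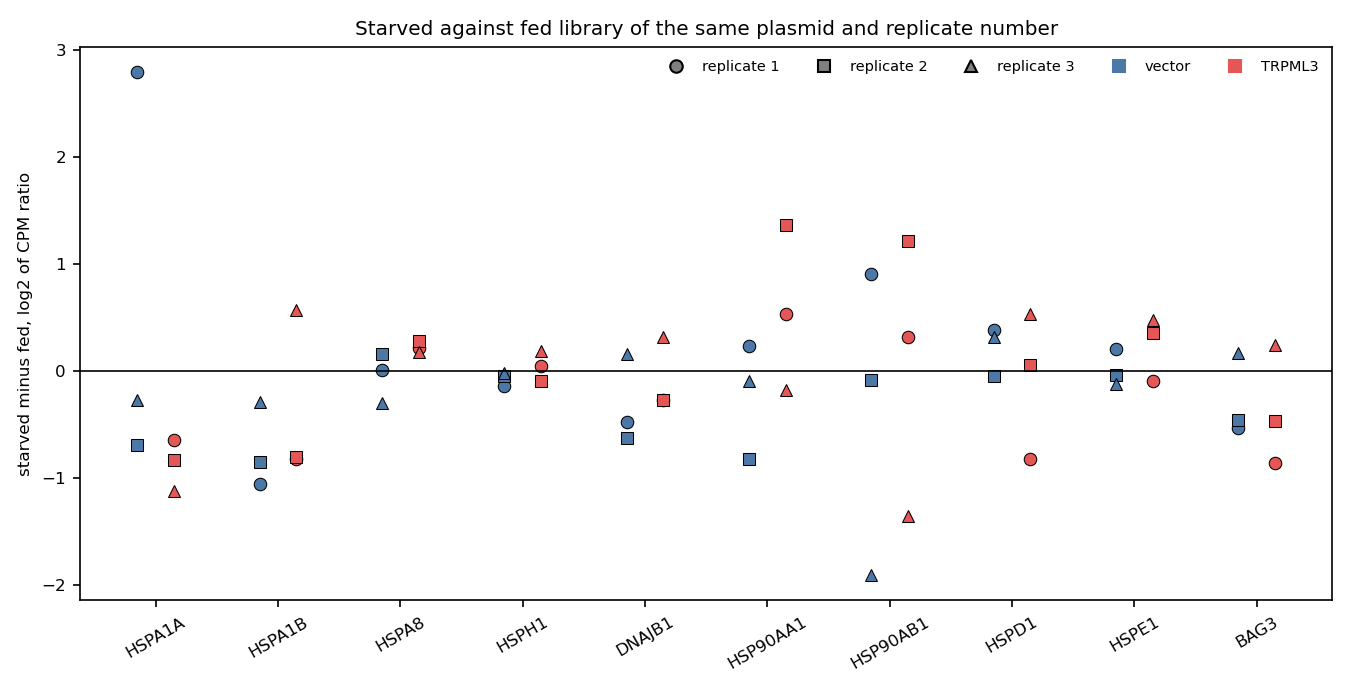
Log2 ratio of starved to fed CPM (y axis) for each gene (x axis) between libraries of the same plasmid and replicate number; colours are plasmids and shapes are replicates. For HSPA1B, DNAJB1 and BAG3 the circles and squares (replicates 1 and 2) lie below 0, while the triangles (replicate 3) lie nearer to or above it.

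Without replicate 3, HSPA1B fell in starved cells over both plasmids, with a log2 fold change of -0.87 ± 0.11 SE (adjusted p = 0.0259, edgeR). It was then the 1 of 10 members called, compared with 4.49% of all genes, or 810 of 18052. Further members with an unadjusted p under 0.05 did not pass: BAG3 at -0.55 (adjusted p = 0.112), DNAJB1 at -0.40 (adjusted p = 0.132) and HSP90AB1 at 0.57 (adjusted p = 0.212). Without replicate 1 the fit called 1 gene of all tested and without replicate 2 it called 0, with no member among them, and HSPA1B then had log2 fold changes of -0.42 and -0.44. The call of HSPA1B thus appeared only in the fit that left out replicate 3, of the 3 such fits.

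TRPML3 and vector cells were compared within each serum state to ask for an effect of the channel. In fed cells 0 of 10 members passed an adjusted p of 0.05 in edgeR, compared with 0.0111% of all genes, and in starved cells 0 of 10, compared with 0.00555%. At an unadjusted p under 0.05 the counts were again 0 and 0, beside 2.21% and 2.2% of all genes. Averaged over serum states 0 of 10 passed at either threshold, compared with 0.0111% at the adjusted and 2.62% at the unadjusted one.

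HSPA1B had the smallest p of the members in fed cells, where it was at 291 ± 130 CPM with TRPML3 and 418 ± 7.17 with vector (SD, n = 3). Its log2 fold change was -0.52 ± 0.31 SE (unadjusted p = 0.124, adjusted p = 1.0, edgeR). It was the 1 of 10 members with no overlap between these groups, compared with 7.09% of all genes, and without replicate 3, or without TRPML3 fed replicate 3 alone, the log2 fold change was -0.20. Averaged over serum states it was -0.41 ± 0.22, -0.14 ± 0.11 without replicate 3 and -0.25 without TRPML3 fed replicate 3 alone (adjusted p = 1.0 in each).

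In starved cells HSP90AA1 had the smallest p, at 4233 ± 1180 CPM with TRPML3 and 2956 ± 402 with vector (SD, n = 3). Its log2 fold change was 0.52 ± 0.31 SE (unadjusted p = 0.122, adjusted p = 1.0, edgeR), and 0.29 without TRPML3 starved replicate 2. In starved cells 0 of 10 members had groups free of overlap, compared with 6.58% of all genes. The median log2 fold change of the members was -0.13 in fed cells, 0.0983 in starved cells (0.0168 without replicate 3) and -0.00855 on average, beside -0.0111 on average for all genes. The fed and starved comparisons of a plasmid share libraries with these, so their values are not independent.

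Whether the response to starvation differed with TRPML3 was tested as an interaction. None of the 10 members passed, with 0 at an adjusted p under 0.05 beside 0% of all genes, and 0 at an unadjusted p under 0.05 beside 2.07%. HSP90AA1 came nearest, with an interaction of 0.88 ± 0.44 SE on the log2 scale (unadjusted p = 0.069, adjusted p = 1.0, edgeR). Its starved-minus-fed difference was -0.30 ± 0.31 in vector and 0.58 ± 0.31 in TRPML3 cells, and its highest library in each plasmid was replicate 2, fed with vector and starved with TRPML3. The interaction was 0.09 without replicate 2 in all groups, 0.45 without vector fed replicate 2 alone and 1.31 ± 0.49 without replicate 3. DESeq2 and limma also called 0 of 10 members in all 7 comparisons.

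The rest of the chaperone network was described with 59 genes in 8 lists, and 58 of these genes were tested. The lists were written from general knowledge, with earlier results of these data known. In edgeR 0 of 58 passed in any of the 7 comparisons. For starved against fed over both plasmids, 12 were higher and 1 lower at an unadjusted p under 0.05, together 22.4% of the list genes beside 9.45% of all genes. The median log2 fold change was 0.117 beside 0.00618 for all genes. With TRPML3 against vector, 0 of 58 reached an unadjusted p under 0.05 in fed cells, in starved cells or on average.

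The TRiC chaperonin, the cytosolic ring that folds actin and tubulin, held 5 of these 13 genes among its 8 subunits: TCP1, CCT2, CCT3, CCT5 and CCT6A, all higher in starved cells. The share of all genes tested with such a p was 9.45%. The median log2 fold change of the TRiC genes was 0.185. CCT3 ranged from 653 to 780 CPM (median 712) in the 6 fed and from 812 to 964 (median 857) in the 6 starved libraries, which did not overlap. Such a gap was found in 3 of 58 list genes (CCT3, CCT5 and HTRA2), in 0 of 10 members and in 1.25% of all genes tested. Its log2 fold change was 0.29 ± 0.08 SE (unadjusted p = 0.00425, adjusted p = 0.363, edgeR), and 0.31 with an adjusted p of 0.0737 without replicate 3.

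Co-chaperones of the listed members had mixed values. For starved against fed over both plasmids, 2 of 8 J-domain proteins had an unadjusted p under 0.05 in edgeR, DNAJA1 and DNAJC7. The share of all genes tested was 9.45%. DNAJA1, a partner of cytosolic HSP70, ranged from 527 to 677 CPM fed and from 626 to 1130 starved (log2 fold change 0.50 ± 0.15 SE, adjusted p = 0.363, edgeR; 0.30 without replicate 3). Of 12 HSP90 co-chaperones, STIP1 and FKBP4 had an unadjusted p under 0.05, beside the same share of all genes. FKBP4, an immunophilin that binds HSP90, ranged from 298 to 433 CPM fed and from 411 to 484 starved (0.27 ± 0.09, adjusted p = 0.379, edgeR).

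Of the 5 HSP70 nucleotide exchange factors listed beside the members, BAG1 and HSPBP1 had an unadjusted p under 0.05, beside 9.45% of all genes. The median of these 5 was 0.405 (0.681 without replicate 3). HSPBP1 ranged from 5.83 to 10.5 CPM fed and from 8.89 to 13.2 starved (0.54 ± 0.18, adjusted p = 0.391, edgeR). The 8 other HSP70 and HSP110 genes had a median of -0.0756 (-0.28 without replicate 3). HSPA13, a microsomal HSP70 relative, ranged from 323 to 575 CPM fed and from 96.7 to 337 starved, with a log2 fold change of -0.92 ± 0.26 SE (adjusted p = 0.363, edgeR).

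Of 9 mitochondrial chaperones and proteases, with a median of 0.17 (0.425 without replicate 3), the protease gene HTRA2 had the smallest p. It ranged from 19.8 to 27.2 CPM fed and from 27.4 to 31.0 starved, groups that did not overlap (0.32 ± 0.14, adjusted p = 0.518, edgeR). None of HSF1, HSF2, HSF4 and HSBP1 (the gene of a protein that binds heat shock factor) or the 4 small heat shock protein genes tested (of 5) reached an unadjusted p under 0.05. The row of HSF1 carries an identifier absent from the primary assembly annotation of GENCODE release 29. HSF1 ranged from 16.1 to 39.0 CPM fed and from 30.6 to 47.7 starved. Its log2 fold change was 0.40 ± 0.23 SE (adjusted p = 0.633, edgeR), and 0.68 without replicate 3. HSPB6, a small heat shock protein gene, was at most 3.5 CPM. Without replicate 3, DNAJB4 and HSPA4L fell in starved cells, 2 of 58 (beside 4.49% of all genes), and no list gene rose.

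**Figure D5:**
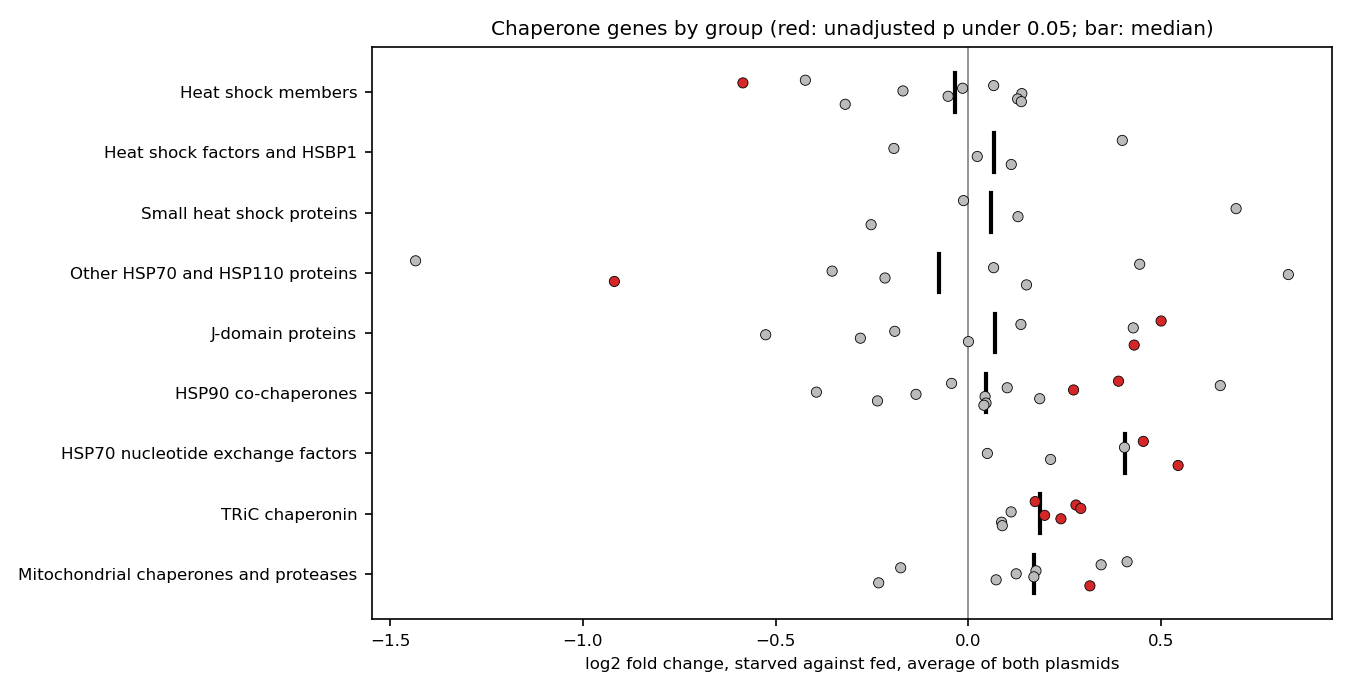
Log2 fold change of starved against fed cells over both plasmids (x axis) for the 10 heat shock members and 58 other chaperone genes by list (y axis); each point is a gene, red points have an unadjusted p under 0.05 and black bars are medians. The TRiC subunits all lie to the right of 0 around a median of 0.185, while the members lie on both sides around -0.034.

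The genes most like the members were sought by the Pearson correlation, over the 12 libraries, with the mean of the members' centred log2 CPM. The 5 highest were CICP22 (r = 0.89), ZNF721 (0.88), ZNF559 (0.83), SAMD4B (0.82) and GNPAT (0.82). The libraries share depth and processing, and CICP22 averaged 0.318 CPM, so the values describe these 12 libraries only. The members' mean was lowest in TRPML3 starved replicate 3, vector fed replicate 1 and TRPML3 fed replicate 3, at -0.27, -0.27 and -0.26. These are the libraries in which HSPA1A was low. HSPA1A varied 21.1-fold between libraries and no other member more than 4.02-fold, so HSPA1A moved this mean the most. Correlations without HSPA1A were not computed.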

How the data were processed

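Polyadenylated RNA of 12 HEK293T libraries was sequenced. The authors deposited raw counts per gene, and a normalized signal that the file's values show to be the count divided by a size factor of the library. FastQC, fastp, HISAT2, StringTie, DESeq2 and GRCh38 are named per the submitters' processing notes, and versions, annotation release and strand are not given in the sources used here. Counts were tested with edgeR 4.0.16 in R 4.3.3 (TMM, filterByExpr, robust quasi-likelihood fit of all 12 libraries, 1 coefficient per group, Benjamini-Hochberg over 18030 genes, threshold 0.05, 8 residual degrees of freedom); the common biological coefficient of variation was 0.527. DESeq2 1.42.0, and limma 3.58.1 on log2 of the authors' signal + 1, were alternatives. A run on simulated counts served as a check of the code only. The chance of finding a change of a given size at the spread of these libraries was not estimated.

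The members and lists were chosen with earlier results of these data known. All members were named; statistics were printed for called members or the smallest p in a comparison, one gene was named per list, and others were chosen after their values were seen. Exon lengths and coordinates came from GENCODE release 29 (GRCh38), whose primary assembly annotation held 93.9% of the identifiers. Replicate numbers paired libraries across plasmids within a serum state, as found from the data. The correlation of deviations was 0.11, 0.15 and 0.33 between fed and 0.13, 0.095 and 0.32 between starved libraries.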

Additional observations from a re-analysis of the deposited data

Results flagged for a closer look

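HSPE1-MOB4, a readthrough gene that shares exons with HSPE1 and MOB4 and was not among the members, was at 0 counts in 9 libraries but had 1600 counts in vector starved replicate 2, 4590 in vector starved replicate 3 and 1177 in TRPML3 fed replicate 3. It was singled out because it carries signal in a row outside the measurement of the members, above the 3 counts taken as the limit of a zero count. MOB4 had 5738, 3075 and 5529 counts in these libraries and 3654 to 7864 in the other 9. The values of HSPE1 there were 201, 192 and 176 CPM, the 3 lowest of its 12. The part of read placement in this was not tested.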

How the results depend on the processing

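The number of members called was 0 in all 7 comparisons under every alternative run but one: leaving out replicates gave 0 to 1 for starved against fed over both plasmids, where the 1 was HSPA1B without replicate 3 (log2 fold change -0.87, adjusted p = 0.0259). Over the 24 alternatives its log2 fold change there ran from -0.87 to -0.419 and its adjusted p from 0.0259 to 1.0, and no value changed direction. DESeq2 called 287 genes in that comparison where edgeR called 0, none of them members, with an adjusted p of 0.264 for HSPA1B. The replicate block grouped libraries by replicate number across all 4 groups. It thus also tied fed to starved libraries, which the shared number does not pair. No fit used the pairing of plasmids within a serum state. The replicate block gave 0 members in every comparison and -0.571 for HSPA1B (adjusted p = 0.474, edgeR) and changed the call of no member. Over all genes it took the number called from 2 to 0 for TRPML3 against vector in fed cells and from 1 to 0 in starved cells. The number went from 1 to 0 for starved against fed vector cells and from 2 to 1 for the average TRPML3 effect. The median of the members moved beyond its spread of 0.134 in 5 cases, each 1 comparison in a fit that left out libraries. Among them was a move from 0.04 to -0.141 for starved against fed TRPML3 cells without replicate 3. The cause was not tested. Every member had at least 255 counts in every library.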
